A study of Mus musculus with 10 samples.

Results

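The follicular helper program was read through 7 genes in CD4 T cells of the mouse. They were the cytokine Il21, the receptor Cxcr5, the SLAM family receptor Slamf6, its adaptor Sh2d1a (SAP), the transcription factors Bcl6 and Maf, and Prdm1, which encodes the opposing factor BLIMP1. Follicular helper cells are the CD4 T cells that enter B cell follicles and sustain germinal centres. CXCR5 follows the chemokine CXCL13 into the follicle, IL-21 acts on B cells there, and SAP carries signals from SLAM receptors that hold T and B cells together. BCL6 is the factor that defines the fate, and BCL6 and BLIMP1 repress each other's genes. IL-2, through STAT5, is known to hold the fate back. The members were given as a list of gene names, chosen with earlier results of these data known. Shares of all genes set beside their counts are therefore a description and not a test of the list. All 7 were among the 11938 genes that could be read on these arrays. For each gene the brightest probe set on average was used, of 16 probe sets annotated to these genes alone. Levels are the authors' log2 values, on which a difference of 1 is 2-fold.

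RNA came from CD4 cells of female mice aged 6 to 8 weeks, taken from lymph nodes and spleen together and sorted by flow cytometry, with 1 array for each of 10 groups. GFPko cells were GFP-positive cells of Foxp3(gfpko/wt) females, in which the X-linked Foxp3 locus makes GFP and no Foxp3 protein, while other cells of the same mice use the wild-type allele. GFPfoxp3 cells were the GFP-positive cells of Foxp3(gfp/gfp) females, where GFP is fused to Foxp3, the factor that defines regulatory T cells. CD25pos and CD25neg cells were the GFP-negative cells of that second line with and without CD25, a chain of the IL-2 receptor. The gfpko line was backcrossed to C57BL/6 for 5 generations and the gfp line for 8 to 10, both from 129/Sv. GFPko, GFPfoxp3 and CD25pos cells were taken both from mice injected 4 times within 24 h with IL-2 at 50 ng per g, with cells isolated 30 min after the last dose, and from mice for which no injection is recorded, called untreated here. How many animals went into a pool is not stated. The remaining arrays held CD25-positive CD4 cells of C57BL/6 mice that had been stimulated in culture through CD3 and CD28 with IL-2 and transduced with the MigR1 retrovirus. They were a separate experiment. Of the cells in culture, more than 70% were Foxp3-positive when stained on day 5. The retrovirus carried the phosphodiesterase PDE3B with the substitution H801A, PDE3B itself, or no insert (MigR1_PDE3B_H801A, MigR1_PDE3B and MigR1_empty). The transduced cells were transferred into TCRalpha-deficient mice, mixed with CD25-negative cells bearing the same vector. After 3 weeks the GFP-positive, GITR-positive, Ly5.1-negative CD4 cells were sorted.

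Foxp3, the targeted gene, lay at 9.39 and 8.33 in GFPko cells after IL-2 and without it, and at 10.86 on both GFPfoxp3 arrays. It lay at 2.85 and 3.90 in CD25pos cells after IL-2 and without it, at 2.45 in CD25neg cells, and at 11.29, 11.26 and 11.52 with the H801A, PDE3B and empty vectors. The sources used here do not give the place of its probe set relative to the inserted GFP, so the level does not test whether the protein was missing. All 6 T cell markers with a probe set were above the array median on every array, with Cd4 at 10.30 to 10.78 in sorted cells and at 8.65, 8.05 and 9.29 with the H801A, PDE3B and empty vectors. The median over all probe sets, 3.04 to 3.22 on these arrays, is used here as the level under which a gene was not above background. For Actb the 3′ control probe set exceeded the 5′ one by 5.87 to 6.38 log2 units on the transduced arrays and by 2.70 to 3.80 on the others, a measure of how far the labelled product reached toward the 5′ end. No group had a replicate. Tests were made with limma on the 6 arrays that hold GFPko, GFPfoxp3 and CD25pos cells in both IL-2 states, so their p-values measure how alike a difference was between IL-2 states or populations. They do not measure how repeatable it was between animals. In bulk RNA, fewer cells that make a transcript and less transcript per cell cannot be told apart.

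The members differed widely in how much they varied. Il21 spanned 5.50 log2 units over the 10 arrays, more than 99.3% of the genes read, and Cxcr5 spanned 4.73, more than 98.7%. Prdm1 spanned 3.91, Maf 3.09, and Slamf6 and Bcl6 2.53 each. Sh2d1a spanned 0.98, more than 42.2% of genes, and stayed between 8.63 and 9.61. Its lowest level was in untreated GFPko cells and its highest with the PDE3B vector. The members did not vary together, as the plot of levels by array shows. CD25pos cells held both Il21 and Cxcr5, GFPko cells held Il21 with little Cxcr5, and GFPfoxp3 cells held Cxcr5 with little Il21. With 1 array per group, the order of arrays with similar levels is not settled.

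**Figure D1:**
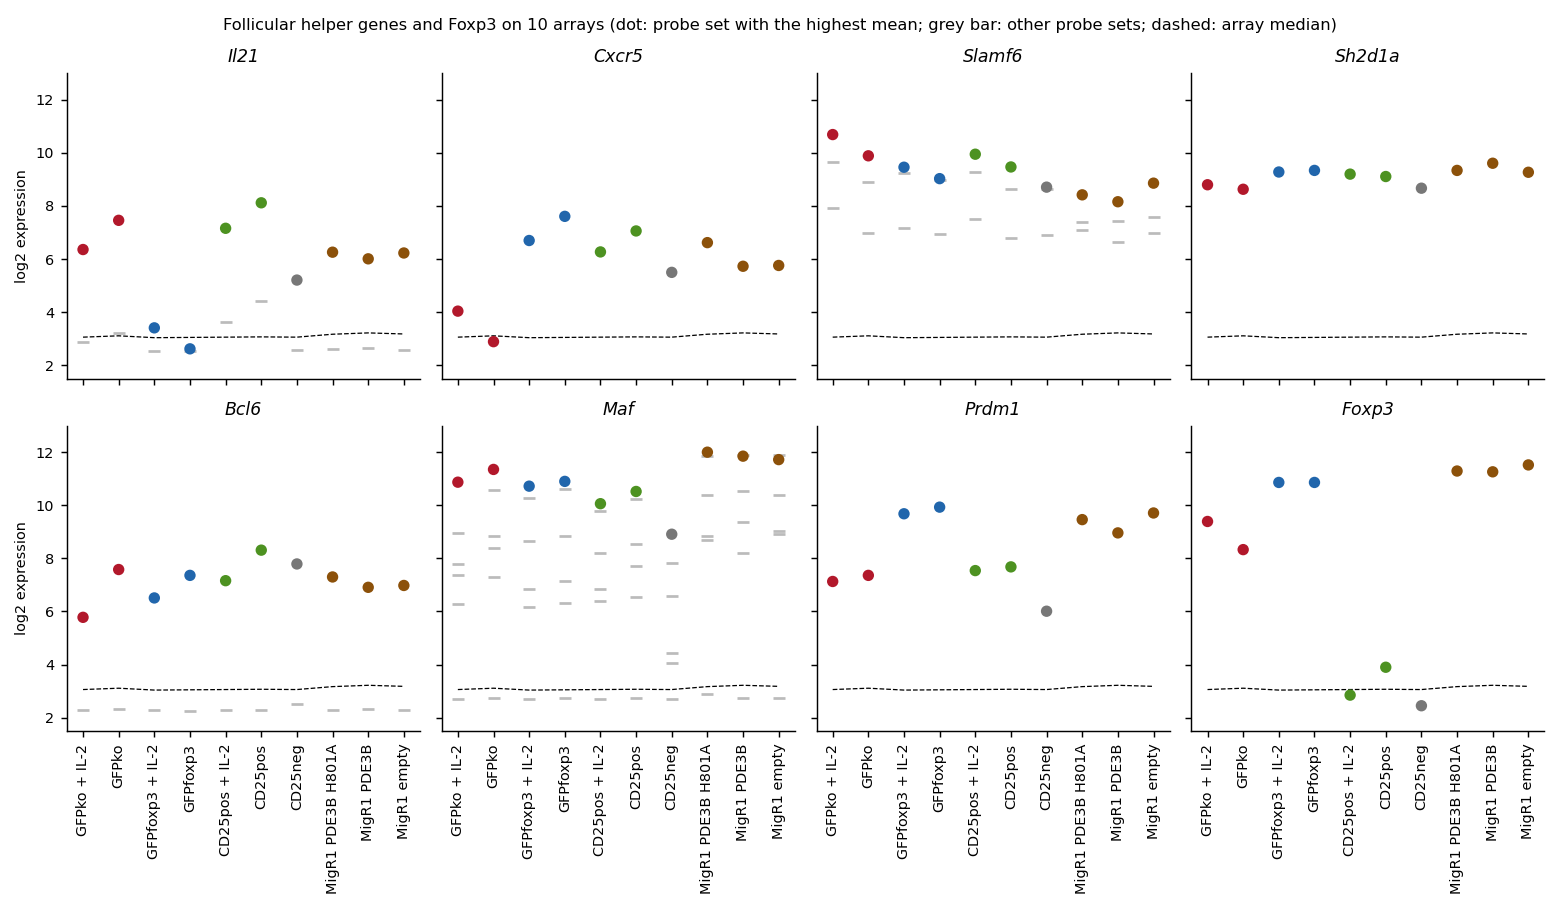
Log2 expression of the 7 follicular helper genes and of Foxp3 on each of the 10 arrays. Coloured dots are the probe set with the highest mean, grey bars the gene's other probe sets, and the dashed line the array's median over all probe sets. Il21 is lowest in GFPfoxp3 cells (3.41 after IL-2, 2.62 untreated) and Cxcr5 in GFPko cells (4.04 and 2.89), while Sh2d1a stays between 8.63 and 9.61.

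GFPko cells carried more Il21 and Slamf6 and less Cxcr5 and Prdm1 than GFPfoxp3 cells. The comparison asks how cells reading the Foxp3 locus differ when the protein is not made. The 2 populations also came from different lines, heterozygous with 5 backcross generations against homozygous with 8 to 10. Mouse line and absence of the protein cannot be told apart here. Of the 7 members, 2 were higher and 2 lower at an adjusted p under 0.05 (limma, Benjamini-Hochberg over all genes), against 7.47% of all genes called in either direction, 2.03% higher and 5.44% lower. The median difference of the members was -0.26, beside -0.01 over all genes. The calls come from an additive fit that includes CD25pos cells. In the fit without those arrays, or with no filter on dim genes, Prdm1 was the only member called of the 4.

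Il21, the cytokine that follicular helper cells give to B cells, lay at 6.36 and 7.46 in GFPko cells after IL-2 and without it, against 3.41 and 2.62 in GFPfoxp3 cells. The untreated GFPfoxp3 array was below its median. The log2 difference was 3.90 (SE 0.520, adjusted p = 0.0304), higher in both pairs. Among untreated cells this amounts to at least 21.2-fold, since the lower side was not above background. A second, dimmer probe set of Il21 lay at 2.88 and 3.23 in GFPko cells, against 2.54 and 2.53 in GFPfoxp3 cells. It gave a difference of 0.52 that was not called (adjusted p = 0.231). With no filter on dim genes the adjusted p of the brighter probe set was 0.0998, and 0.0518 without the CD25pos arrays.

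MAF is known to act on the Il21 gene in mouse CD4 T cells, and its promoter is shown for that reason. RefSeq promoter sequences of GRCm38.p6 were at hand for 4 of the 7 members, and the 250 bases before the transcript start are printed 5′ to 3′ on the gene's strand. Each was searched on both strands for TTCNNNGAA (a STAT site), TGANTCA (AP-1), TGCTGA (the arm shared by MAF recognition elements) and GAAAGT (part of a PRDM1 site), and matches are in capitals. In Il21 (chr3:37232637-37232886, minus strand) the only match was TGCTGA, which begins 234 bases before the start and occurs in 16.1% of the 32851 promoters of the table.
Il21: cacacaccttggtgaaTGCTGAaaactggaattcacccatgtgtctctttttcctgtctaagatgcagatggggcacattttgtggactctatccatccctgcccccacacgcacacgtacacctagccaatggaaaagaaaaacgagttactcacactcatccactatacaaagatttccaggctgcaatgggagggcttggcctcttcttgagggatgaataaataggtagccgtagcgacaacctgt
The window of Slamf6 held none of the 4 motifs, which says only that these letters are not in it.

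Cxcr5, the receptor that brings T cells into follicles, lay at 4.04 and 2.89 in GFPko cells after IL-2 and without it, against 6.70 and 7.61 in GFPfoxp3 cells. Here the untreated GFPko array was the one below its median. The difference was -3.69 (SE 0.570, adjusted p = 0.0404), lower in both pairs and at least 22.7-fold among untreated cells. Cxcr5 was read by 1 probe set. It was the call closest to the threshold: quantile normalization gave an adjusted p = 0.0593, no filter on dim genes 0.122, and leaving out CD25pos cells 0.0628.

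Prdm1, which encodes BLIMP1, had the smallest adjusted p of the 7. It lay at 7.13 and 7.36 in GFPko cells after IL-2 and without it, against 9.68 and 9.93 in GFPfoxp3 cells. Levels differed little between IL-2 states. The difference was -2.56 (5.88-fold, SE 0.0978, adjusted p = 0.0052), lower in both pairs, and it was called under every alternative fit run here. Its promoter is shown because AP-1 factors are among the known regulators of this gene. In the window before the Prdm1 start (chr10:44458749-44458998, minus strand) 1 match was found, TGANTCA at 48 bases before the start, a motif held by 6.75% of promoters.
Prdm1: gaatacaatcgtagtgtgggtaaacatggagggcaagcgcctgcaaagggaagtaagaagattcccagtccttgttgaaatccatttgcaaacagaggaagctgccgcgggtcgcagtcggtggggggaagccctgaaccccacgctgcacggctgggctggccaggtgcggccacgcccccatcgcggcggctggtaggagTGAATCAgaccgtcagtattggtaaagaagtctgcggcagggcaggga

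Slamf6, a SLAM family receptor that binds its own kind on neighbouring cells and signals through SAP, lay at 10.69 and 9.89 in GFPko cells after IL-2 and without it, against 9.46 and 9.03 in GFPfoxp3 cells. The difference of 1.05 was called (SE 0.136, adjusted p = 0.0288) and was positive in both pairs. It rests on 1 of 3 probe sets. The other Slamf6 probe sets gave 0.17 (adjusted p = 0.573) and 0.39 (adjusted p = 0.324), and the mean of all 3 gave 0.54 (adjusted p = 0.121). Which transcripts each probe set reads was not tested.

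Sh2d1a, the SAP adaptor, lay at 8.80 and 8.63 in GFPko cells after IL-2 and without it, against 9.28 and 9.34 in GFPfoxp3 cells. Its difference of -0.59 was negative in both pairs and narrowly missed the threshold (SE 0.108, adjusted p = 0.0554). With all probe sets of each gene averaged, Sh2d1a was called (adjusted p = 0.0459). It has 1 probe set, so its own difference stayed at -0.59. Bcl6 was not called (-0.26, SE 0.252, adjusted p = 0.584), with 5.78 and 7.58 in GFPko cells, against 6.51 and 7.36 in GFPfoxp3 cells. Its pairs went opposite ways, lower in GFPko cells after IL-2 and higher without it.

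Maf, a factor that drives Il21 and Il10 in several helper lineages, was abundant in both populations. It lay at 10.87 and 11.35 in GFPko cells after IL-2 and without it, against 10.72 and 10.90 in GFPfoxp3 cells, a difference of 0.30 that was not called (SE 0.125, adjusted p = 0.239). Its probe sets disagreed. Of 6 probe sets, 5 passed the filter on dim values. Among them 1437473_at gave 1.63 (adjusted p = 0.0398), with 7.36 and 8.39 in GFPko cells against 6.17 and 6.32 in GFPfoxp3 cells. The probe sets 1435828_at, 1444073_at and 1447849_s_at gave -0.45, -0.20 and -0.70, none of them called, so the data give no direction for Maf in this comparison.

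**Figure D2:**
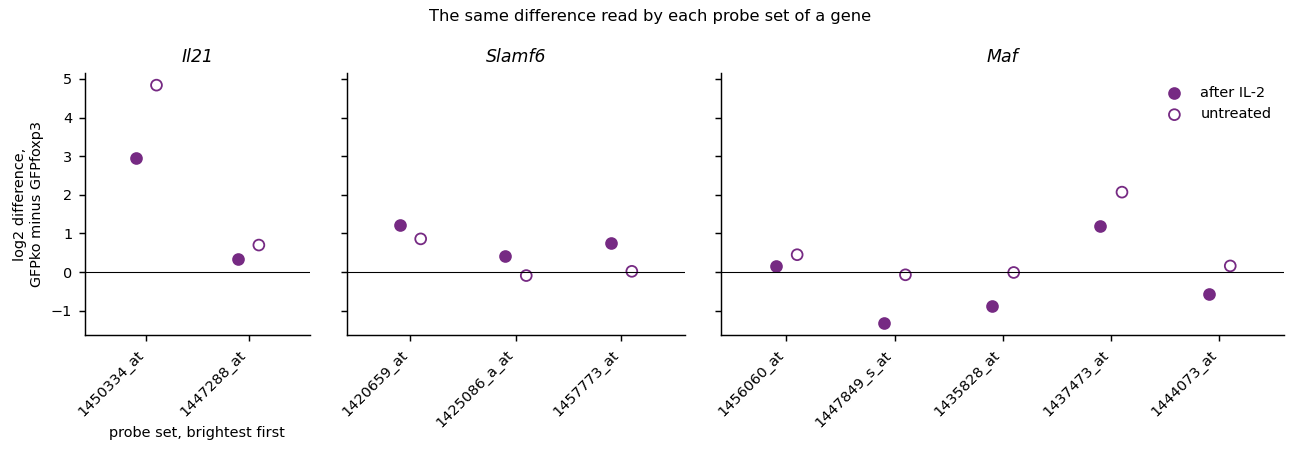
Log2 difference, GFPko minus GFPfoxp3, by probe set for Il21, Slamf6 and Maf, with filled dots after IL-2 and open dots without it, brightest probe set on the left. The 2 Il21 probe sets lie above 0 in both states at very different sizes, the brightest Slamf6 probe set exceeds the other 2, and Maf probe sets fall on both sides of 0 (fitted 1.63 at 1437473_at and -0.70 at 1447849_s_at).

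Markers of other cells moved with this comparison. Of 8 B cell markers with a probe set, 4 were at or above the median on each array of both populations. The summed log2 level of all 8 was 32.0 and 33.4 in GFPko cells, against 39.0 and 38.9 in GFPfoxp3 cells. Cd74, the invariant chain of MHC class II, carried the largest part of this, at 3.73 and 4.04 in GFPko cells, against 7.02 and 6.96 in GFPfoxp3 cells. Ighm lay at 9.81 and 10.35 in GFPko cells, against 12.04 and 12.18 in GFPfoxp3 cells, and Cd79b at 5.36 and 5.02 in GFPko cells, against 6.96 and 6.71 in GFPfoxp3 cells. The marker Ms4a1 (CD20) stood at 3.43 and 3.60 in GFPko cells, against 3.43 and 3.42 in GFPfoxp3 cells, close to the medians, and Cd79a, Pax5 and Cr2 were below the median on all arrays. Of 4 innate-like and gamma delta T cell markers, 1 was above the median in both populations, Trgv4, a gamma chain segment. It lay at 9.25 and 8.48 in GFPko cells, against 6.17 and 5.83 in GFPfoxp3 cells. The summed level of these markers was 17.2 and 16.8 in GFPko cells, against 13.6 and 13.5 in GFPfoxp3 cells. The summed level of 8 regulatory T cell markers, all above the median, was 86.0 and 80.8 in GFPko cells, against 92.5 and 92.1 in GFPfoxp3 cells. The part of these markers in the differences of Il21, Cxcr5, Slamf6 and Prdm1 was not tested.

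GFPfoxp3 cells were next held beside the CD25pos cells, GFP-positive against GFP-negative cells of 1 mouse line. Il21 fell and Prdm1 rose, and the other 5 members were not called. Over all genes 8.73% were called, 5.28% higher and 3.45% lower, and the median difference was 0.15 for the members and -0.03 over all genes. Il21 lay at 3.41 and 2.62 in GFPfoxp3 cells after IL-2 and without it, against 7.16 and 8.12 in CD25pos cells, with the untreated array the highest of the series. The difference was -4.63 (SE 0.520, adjusted p = 0.0195), lower in both pairs and at least 33.5-fold among untreated cells, and the dimmer Il21 probe set gave -1.49 (adjusted p = 0.0315). Prdm1 stood at 9.68 and 9.93 in GFPfoxp3 cells, against 7.54 and 7.68 in CD25pos cells (difference 2.20, SE 0.0978, adjusted p = 0.00516). In the fit without the GFPko arrays, and with no filter on dim genes, Prdm1 alone was called. The summed level of 7 CD8 and NK cell markers was 22.1 and 20.9 in GFPfoxp3 cells, against 34.4 and 36.6 in CD25pos cells. The innate-like and gamma delta T cell markers summed to 13.6 and 13.5 in GFPfoxp3 cells, against 21.8 and 21.2 in CD25pos cells, with Zbtb16, the PLZF factor of innate-like T cells, at 2.53 and 2.50, below the median, against 6.87 and 6.44. The B cell markers summed to 39.0 and 38.9 in GFPfoxp3 cells, against 31.8 and 32.2 in CD25pos cells. The part of these markers in the Il21 and Prdm1 differences was not tested.

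Cxcr5 was present in both of these populations, at 6.70 and 7.61 in GFPfoxp3 cells after IL-2 and without it, against 6.27 and 7.06 in CD25pos cells. The difference of 0.49 lay within its error (SE 0.570, adjusted p = 0.681). Bcl6 was lower in both pairs (-0.80, SE 0.252, adjusted p = 0.148), with 6.51 and 7.36 in GFPfoxp3 cells, against 7.16 and 8.31 in CD25pos cells, and did not pass. Slamf6 (-0.47, adjusted p = 0.129) and Maf (0.52, adjusted p = 0.0898) did not pass either, and 1 other probe set of each gave the opposite sign. For Sh2d1a the difference was 0.15 (SE 0.108, adjusted p = 0.477).

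**Figure D3:**
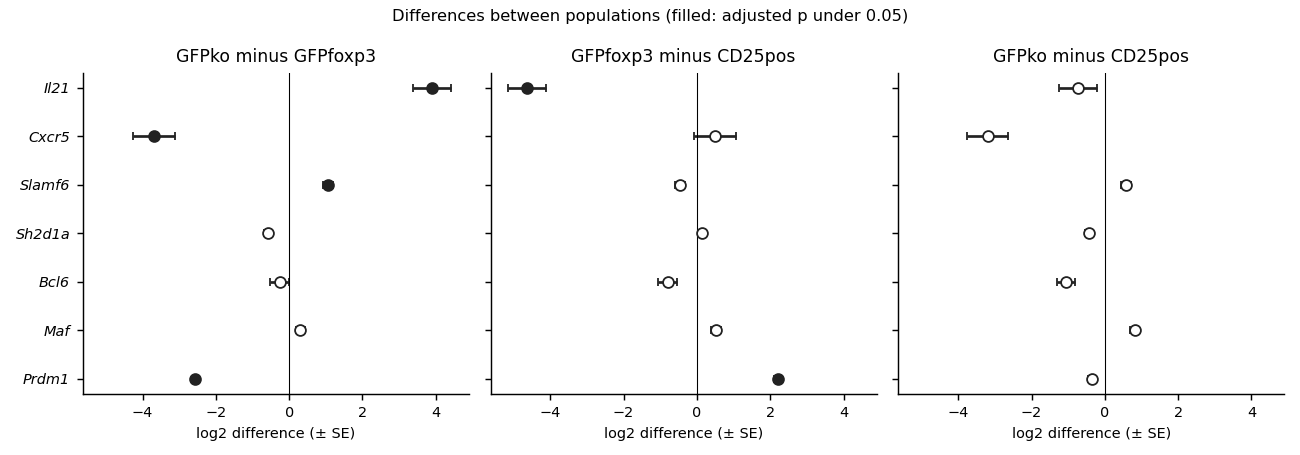
Log2 differences of the 7 members between populations from the fit on 6 arrays, with limma's moderated standard errors as bars and filled dots where the adjusted p was under 0.05. Il21 and Prdm1 are called with opposite signs in the first panel (3.90 and -2.56) and in the second (-4.63 and 2.20), and the third panel holds no call.

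GFPko cells were also set against the GFP-negative CD25pos cells. These came from the gfp line, so mouse line and population cannot be told apart. None of the 7 members passed in limma, where 3.48% of all genes did (1.25% higher, 2.24% lower), although 6 of 7 had an unadjusted p under 0.05, as had 2420 of 11938 genes. Cxcr5 had the largest difference, at 4.04 and 2.89 in GFPko cells after IL-2 and without it, against 6.27 and 7.06 in CD25pos cells (-3.20, SE 0.570, adjusted p = 0.0720). Il21 lay at 6.36 and 7.46 in GFPko cells, against 7.16 and 8.12 in CD25pos cells, and Prdm1 at 7.13 and 7.36, against 7.54 and 7.68. Their differences were -0.73 (adjusted p = 0.524) and -0.36 (adjusted p = 0.151). For Maf the difference was 0.82 (adjusted p = 0.0573), for Slamf6 0.58 (adjusted p = 0.115), for Bcl6 -1.06 (adjusted p = 0.120) and for Sh2d1a -0.44 (adjusted p = 0.126). The 3 population comparisons share arrays, so they are not independent of each other. With arrays centred on their medians over the genes read, Cxcr5, Slamf6 and Maf were called, and with a filter on the mean level Maf was, though 2 other Maf probe sets gave differences of the opposite sign (-0.06 and -0.25). CD25pos cells carried more markers of other T cells. Zbtb16 lay at 2.59 and 2.56 in GFPko cells, below the median, against 6.87 and 6.44 in CD25pos cells, and Trgv4 at 9.25 and 8.48, against 9.67 and 9.43. The summed level of CD8 and NK cell markers was 23.7 and 21.7 in GFPko cells, against 34.4 and 36.6 in CD25pos cells. Their part in the members' levels was not tested.

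IL-2 given to mice left no member past the threshold. Bcl6 lay lower after IL-2 in all 3 populations, and Slamf6, Maf and Prdm1 also kept 1 sign in all 3. The share of all genes that did so is not given here. Over the 6 arrays limma called 28 genes, 0.235% of those tested, all of them higher, and none of the 7 members, of which 3 had an unadjusted p under 0.05, against 1261 of 11938 genes. The median difference of the members was -0.21, and that over all genes 0.00. Bcl6 was at 5.78 after IL-2 and 7.58 without in GFPko cells, at 6.51 and 7.36 in GFPfoxp3 cells, and at 7.16 and 8.31 in CD25pos cells. The mean difference was -1.27 (2.41-fold, SE 0.206, unadjusted p = 0.00293, adjusted p = 0.214). It was past 2-fold in GFPko cells (-1.80) and CD25pos cells (-1.15) and not in GFPfoxp3 cells (-0.85). At least 2-fold differences were found for 4.92%, 1.35% and 1.95% of all genes in GFPko, CD25pos and GFPfoxp3 cells, and for 3, 1 and 0 of the 7 members, Il21, Cxcr5 and Bcl6 in GFPko cells and Bcl6 in CD25pos cells. Cxcr5 is counted there by its measured levels, and as a bound its difference was at least 1.9-fold. With each array centred on its median the adjusted p of Bcl6 was 0.0418, and under the other alternatives it was at least 0.146. The Actb 3′ to 5′ difference was lower after IL-2 in all 3 populations (2.76 and 3.69 in GFPko, 2.70 and 3.07 in GFPfoxp3, 2.86 and 3.80 in CD25pos cells). Its part in the level of Bcl6, whose second probe set was below the median on all 10 arrays, was not tested. In GFPko cells, where Bcl6 differed most, markers of other cells also differed. Lyz2, a myeloid marker, stood at 5.71 after IL-2 and 3.36 without, and Klrd1, an NK cell receptor, at 4.57 after IL-2 and 3.04 without. The myeloid and dendritic cell markers summed to 20 after IL-2 and 17.3 without, and the regulatory T cell markers to 86.0 and 80.8. Their part in the Bcl6 difference was not tested. In the fit without the GFPko arrays Bcl6 was lower after IL-2 in both remaining populations and did not pass (adjusted p = 0.425).

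STAT5, which IL-2 activates, is known to act on the Bcl6 gene, and its promoters are shown for that reason. RefSeq gives 2 windows on the minus strand of chromosome 16. The upstream one (chr16:23988853-23989102) held 1 TTCNNNGAA, beginning 118 bases before the start. The downstream one (chr16:23981284-23981533) held 3, beginning 168, 122 and 88 bases before its start, the first of them overlapping GAAAGT. Of all 32851 promoters 7.02% held this motif and 0.0274%, 9 in number, held it at least 3 times. A match of letters does not show that a factor binds there.
Bcl6 upstream start: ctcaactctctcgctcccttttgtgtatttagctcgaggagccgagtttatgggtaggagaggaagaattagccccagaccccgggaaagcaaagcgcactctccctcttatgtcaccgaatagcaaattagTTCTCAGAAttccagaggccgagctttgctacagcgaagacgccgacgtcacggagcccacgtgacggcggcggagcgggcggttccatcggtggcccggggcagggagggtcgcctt
Bcl6 downstream start: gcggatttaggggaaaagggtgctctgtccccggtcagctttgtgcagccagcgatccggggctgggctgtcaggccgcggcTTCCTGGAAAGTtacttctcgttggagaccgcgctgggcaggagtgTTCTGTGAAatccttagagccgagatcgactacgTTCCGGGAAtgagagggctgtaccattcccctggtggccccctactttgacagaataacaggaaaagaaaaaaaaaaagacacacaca

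Slamf6 lay higher after IL-2 in the 3 populations, at 10.69 against 9.89 without it in GFPko cells, 9.46 against 9.03 in GFPfoxp3 cells and 9.95 against 9.47 in CD25pos cells. The difference was 0.57 (SE 0.111, adjusted p = 0.278), and the other Slamf6 probe sets gave 0.56 and 0.62. Maf (-0.37, adjusted p = 0.396) and Prdm1 (-0.21, adjusted p = 0.490) lay lower after IL-2 in all 3, by less than 2-fold, and Sh2d1a differed by 0.07 (adjusted p = 0.804). Neither Il21 (-0.42, adjusted p = 0.727) nor Cxcr5 (-0.18, adjusted p = 0.916) passed, and their single pairs differed in sign. Il21 was lower after IL-2 in GFPko cells (-1.10) and CD25pos cells (-0.95) and higher in GFPfoxp3 cells (0.79), the last from a level below the median, which gives at least 1.28-fold. Cxcr5 was higher after IL-2 in GFPko cells (1.15, at least 1.9-fold), again from below the median, and lower in GFPfoxp3 cells (-0.92) and CD25pos cells (-0.78).

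**Figure D4:**
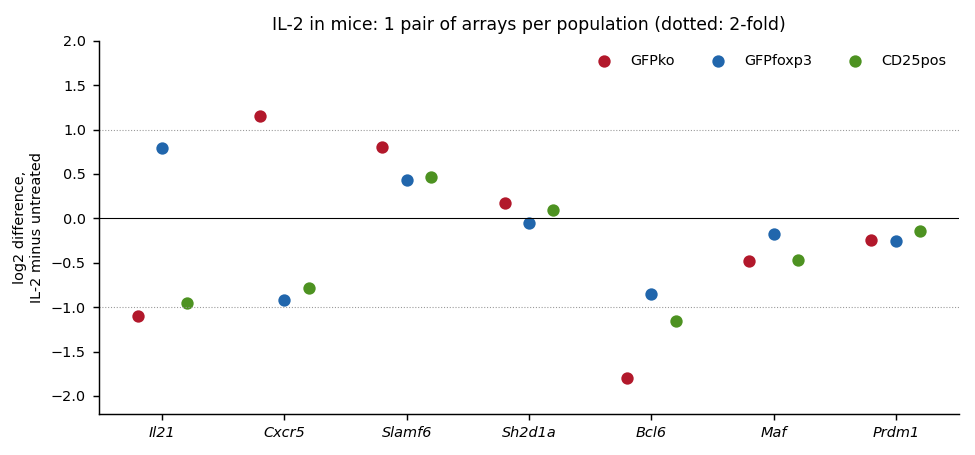
Log2 difference, IL-2 minus untreated, of each member in GFPko, GFPfoxp3 and CD25pos cells, 1 pair of arrays per dot, with dotted lines at 2-fold. Bcl6 lies below 0 in all 3 populations (-1.80, -0.85 and -1.15) and Slamf6 above 0, while Il21 and Cxcr5 lie on both sides.

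The untreated populations were held against CD25neg cells as single arrays, with no test. CD25neg cells came from the gfp line, so for GFPko cells mouse line and population cannot be told apart. Maf and Prdm1 were lowest of all arrays in CD25neg cells, at 8.91 and 6.01. In GFPko cells 5 of 7 members differed at least 2-fold from CD25neg cells, against 6.73% of all genes (3.93% higher, 2.8% lower), with a median of 1.19 beside 0.00. Il21 (7.46 against 5.21), Maf (11.35 against 8.91), Prdm1 (7.36 against 6.01) and Slamf6 (9.89 against 8.71) were higher in GFPko cells. Cxcr5 was lower there, at 2.89 against 5.50, at least 5.26-fold. Slamf6 is counted by its brightest probe set. Its other probe sets, at 8.90 and 6.98 in GFPko cells against 8.64 and 6.89, differed by less than 2-fold. In GFPfoxp3 cells 4 of 7 members differed at least 2-fold, against 10.9% of all genes (7.31% higher, 3.63% lower) and with a median of 0.66 beside -0.01. There Prdm1 (9.93 against 6.01, 15.1-fold), Cxcr5 (7.61 against 5.50) and Maf (10.90 against 8.91) were higher and Il21 (2.62 against 5.21) was at least 4.46-fold lower. In CD25pos cells 4 of 7 did, against 7.25% of all genes (5.55% higher, 1.69% lower), with a median of 1.55 beside 0.01. All 4 were higher, Il21 by 2.91, Prdm1 by 1.66, Maf by 1.62 and Cxcr5 by 1.55 log2 units. Bcl6 and Sh2d1a differed by less than 2-fold in each of the 3 comparisons, with Bcl6 at 7.58 in GFPko, 7.36 in GFPfoxp3 and 8.31 in CD25pos cells, against 7.79 in CD25neg cells. These comparisons share the CD25neg array. Markers of other cells moved with them. The CD8 and NK cell markers summed to 21.7, 20.9 and 36.6 in GFPko, GFPfoxp3 and CD25pos cells, against 30.1 in CD25neg cells, with Klrd1 at 3.04, 2.86 and 8.91, against 8.88. The innate-like and gamma delta T cell markers summed to 16.8, 13.5 and 21.2, against 14.1 in CD25neg cells. The regulatory T cell markers summed to 80.8, 92.1 and 65.7, against 49.3 in CD25neg cells, and the B cell markers to 33.4, 38.9 and 32.2, against 31.6. Their part in the members' differences was not tested.

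On the arrays of the transduced CD25-positive cells all 7 members stood above the array median. In bulk RNA this does not show them in the same cells. No member differed at least 2-fold between MigR1_PDE3B and MigR1_empty, between MigR1_PDE3B_H801A and MigR1_empty, or between H801A and PDE3B, where 5.44%, 2.3% and 3.04% of all genes did. At such shares, none among 7 is not particular to these genes. Il21 was at 6.26, 6.01 and 6.23 with the H801A, PDE3B and empty vectors, and Maf at 12.00, 11.85 and 11.72, its highest levels of the series. Prdm1 was at 9.46, 8.96 and 9.71, and Cxcr5 at 6.62, 5.73 and 5.76. The largest differences were in Cxcr5, 0.89 for H801A minus PDE3B and 0.86 for H801A minus empty, and in Prdm1, -0.75 for PDE3B minus empty. With 1 array on each side none of these has an error. The plasma cell markers summed to 24.4, 25.1 and 28 with the H801A, PDE3B and empty vectors. Of these 6 markers, 2, 2 and 5 were at or above the array median. The plasma cell marker Mzb1 lay at 2.17, 2.17 and 3.92. The B cell markers summed to 41.9, 43.7 and 42.8, the highest sums of the series. What these markers add to the Prdm1 levels and their difference was not tested. Bcl6 lay at 7.30, 6.91 and 6.98, Slamf6 at 8.42, 8.16 and 8.86, and Sh2d1a at 9.34, 9.61 and 9.27. These cells were cultured, transferred and sorted on GITR, and their arrays stand apart in the Actb probe sets, and for differences from GFPfoxp3 cells these cannot be told apart.

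Beyond the 7 members, 6 lists of genes tied to the follicular helper fate held 67 genes, of which 59 could be read. Of the rest, 7 were not analysed here, and Cd40lg was below the median on all 10 arrays. In GFPko against GFPfoxp3 cells 5 of the 59 were higher and 4 lower, against 2.03% and 5.44% of all genes, with a median of -0.22 beside -0.01. Both called homing receptors were higher, and of the 13 read genes of the list chosen as opposing the fate 1 was higher and 1 lower. Higher were Il4, a B cell helper cytokine (3.59, at least 6.55-fold, below the median on both GFPfoxp3 arrays), Id2, an inhibitor of E proteins that opposes the fate (2.23), Pou2af1, the coactivator OCA-B (1.24), and the homing receptors Ccr7 (1.12) and S1pr1 (1.11). Lower were Cd83 (-2.81), the SLAM receptor Cd244a (-1.72), Icos, the costimulator required for follicular helper cells (-1.35), and Tbx21, the Th1 factor T-bet (-1.35). Icos stood at 11.37 and 11.68 in GFPko cells after IL-2 and without it, against 12.69 and 13.05 in GFPfoxp3 cells.

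In GFPfoxp3 against CD25pos cells 9 of the 59 were higher and 10 lower, against 5.28% and 3.45% of all genes, with a median of 0.17 beside -0.03. Higher were Il2ra (3.43, used in sorting the CD25pos cells), Tnfrsf4, the receptor OX40 (2.81), Cd83 (2.78), Il10 (2.69), Cd244a (1.91), Ccr6 (1.58), Batf (1.45), Stat5b (0.73) and Il6st, the shared chain of IL-6 family receptors (0.68). Lower were Il4 (-4.84, at least 15.6-fold), Pou2af1 (-4.27), Id2 (-3.80), Tbx21 (-3.45), Slamf7 (-2.64), Sostdc1 (-1.77, at least 2.75-fold), Ccr7 (-1.12), Runx3 (-1.11), Lef1 (-0.83) and Jak2 (-0.70). Of the 13 read genes of the list chosen as opposing the fate, 2 were higher and 3 lower. Of the 10 for surface receptors and B cell help, 2 were higher and 2 lower. In GFPko against CD25pos cells 3 of the 59 were higher and 6 lower, against 1.25% and 2.24% of all genes, with a median of -0.06 beside -0.01. Il10 (2.60), Ccr6 (2.35) and S1pr1 (1.16) were higher, and Tbx21 (-4.79), Pou2af1 (-3.04), Slamf7 (-2.66), Sostdc1 (-1.72, at least 2.67-fold), Runx3 (-1.60) and Icos (-0.88) lower. After IL-2 none of the 59 was called by limma, where 0.235% of all genes were. Of the 59, 12 had an unadjusted p under 0.05, against 1261 of 11938 genes.

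**Figure D5:**
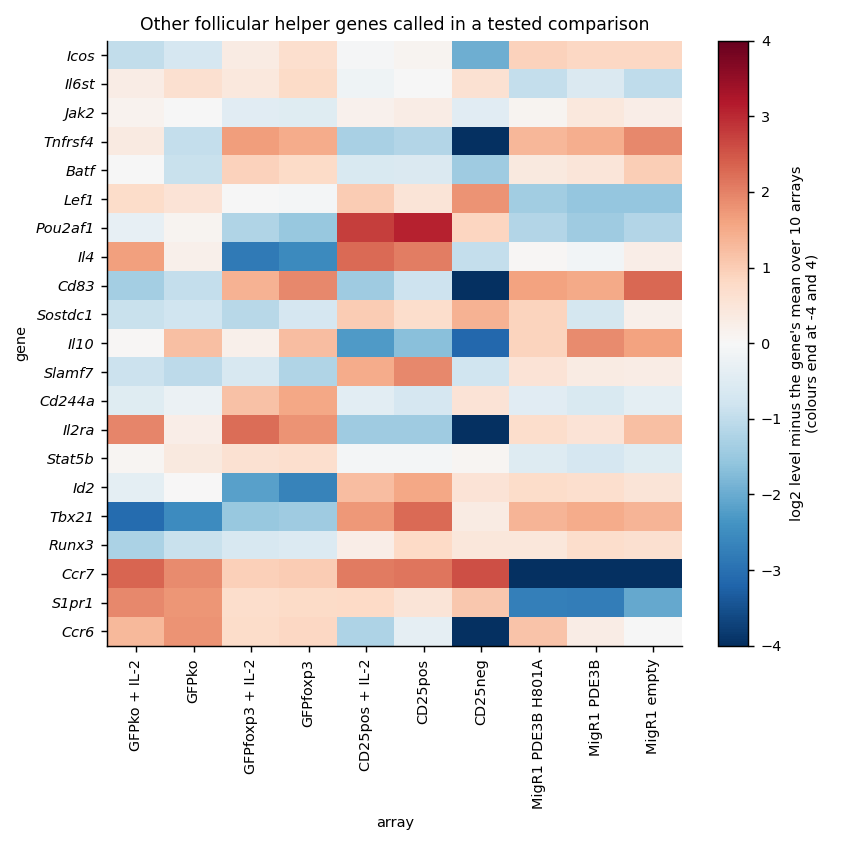
Log2 level minus the gene's mean over the 10 arrays, for the 21 genes of the 6 other lists that were called in at least 1 population comparison, with arrays in columns. Il4 and Id2 are low in both GFPfoxp3 columns, Cd83 is high there and in the vector columns, and Pou2af1 is highest in both CD25pos columns.

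Genes whose profile over the 10 arrays was most like a member's were found by the root mean square difference between profiles, each centred on its own mean, among 2248 other genes spanning at least 2 log2 units. They are a description over 10 arrays, of which the 3 transduced ones come from another experiment. Il21 was closest to Il4 (0.718 log2 units), Id2 (0.779) and 4930486L24Rik (0.862), and Cxcr5 to Chdh (0.595), Fbxw8 (0.666) and 6330403K07Rik (0.668). Il4 lay at 6.48 and 5.04 in GFPko cells after IL-2 and without it, at 2.01 and 2.32 in GFPfoxp3 cells, and at 7.11 and 6.90 in CD25pos cells. Prdm1 was closest to Niban1 (0.283), Ptpn13 (0.337) and Tnfrsf1b (0.384), and Maf to Cdk6 (0.279), Pdcd1 (0.294), which encodes the receptor PD-1 carried by follicular helper cells, and Grhl1 (0.296). Bcl6 was closest to the chemokine receptor gene Cxcr4 (0.464), followed by Scarb1 (0.478) and H2bc21 (0.505), and Slamf6 to Raly (0.304), Arap2 (0.326) and Pop5 (0.328). Over the 7 arrays of sorted cells alone, 2 of 3 of these genes were shared for Il21 and for Slamf6, 1 of 3 for Cxcr5 and Prdm1, and none for Bcl6 and Maf.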

How the data were processed

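RNA was amplified in 2 rounds and hybridized to Affymetrix mouse arrays, per the labels' protocols. The deposited log2 values cover 45101 probe sets. The authors normalized both experiments jointly, per the labels. The log2 scale was inferred from the values, and the sources used here name no background correction, summary or normalization method. Gene names came from the array platform's annotation, some of it old (34958 with 1 gene, 932 with several, 9211 with none listed), and symbols were updated by Entrez ID (34754 matched).

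Genes were kept where a probe set reached the array median on at least 1 array, and represented by their brightest probe set on average (11938 of 18193 genes). Population and IL-2 effects were fitted additively on 6 arrays with limma 3.58.1 in R 4.3.3, with 2 residual degrees of freedom and a prior of 2.23. It was tested on simulated data. Benjamini-Hochberg adjustment ran over all genes, with calls under an adjusted p of 0.05. Alternatives changed the normalization, filters, probe sets, variance model and populations fitted. Comparisons of 1 array with 1 array have no test and use a 2-fold threshold. Where all arrays of the lower side were below their medians, "at least" sets the higher side against those medians. The number of arrays limits the precision.

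Members and lists were chosen with earlier results of these data known. All 7 members, Foxp3, up to 4 called genes a list, ranked by difference, and the 3 genes most like each member that spanned at least 2 log2 units were to be named. The remaining called genes of the lists were named after their values were seen.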

Additional observations from a re-analysis of the deposited data

Results flagged for a closer look

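The differences of Il21 and Cxcr5 after IL-2 had opposite signs in different populations. Neither gene passed over the 3 populations in limma (adjusted p = 0.727 for Il21 and 0.916 for Cxcr5), each value rests on 1 pair of arrays, and the difference between populations was not tested. Il21, IL-2 minus untreated, was -1.10 in GFPko cells and -0.95 in CD25pos cells, and 0.79 in GFPfoxp3 cells, where the untreated array was below its median and the values give at least 1.28-fold. Cxcr5, IL-2 minus untreated, was 1.15 in GFPko cells, from a level below the median that gives at least 1.9-fold, and -0.92 in GFPfoxp3 cells and -0.78 in CD25pos cells.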

How the results depend on the processing

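Prdm1 was called in GFPko against GFPfoxp3 cells and in GFPfoxp3 against CD25pos cells under every alternative fit run, while the other calls depended on the settings. With no filter on dim genes, where 18193 genes were tested, 1 member was called in each of these comparisons, against 4 and 2. Of the other follicular helper genes, 2, 5 and 1 were called in the 3 population comparisons, against 9, 19 and 9. Without the CD25pos arrays, with fewer samples to estimate the spread, 1 member and 4 other genes were called in GFPko against GFPfoxp3 cells. Averaging all probe sets of a gene there gave 4 members, with Sh2d1a, which has 1 probe set, in place of Slamf6. Without the GFPko arrays 1 member was called in GFPfoxp3 against CD25pos cells, and without the GFPfoxp3 arrays 0 other genes in GFPko against CD25pos cells. With arrays centred on their medians over the genes read, the median difference of all genes in GFPko against GFPfoxp3 cells moved to 0.14, against -0.01. Calls there over all genes were then 48.7% higher, against 27.1%, and 51.6% against 35.8% in GFPko against CD25pos cells. Under that centring 17 other genes were called in GFPko against GFPfoxp3 cells, 3 members and 15 other genes in GFPko against CD25pos cells, and 1 member and 1 other gene after IL-2. A filter on the mean level called 1 member in GFPko against CD25pos cells. What lay behind these changes in calls was not tested. Over all genes, GFPko against GFPfoxp3 cells gave 892 calls, against 1379 centred, 382 unfiltered, 408 without CD25pos cells and 945 with probe sets averaged. GFPfoxp3 against CD25pos cells gave 1042, against 609 unfiltered and 836 without GFPko cells. GFPko against CD25pos cells gave 416, against 864 centred, 33 unfiltered and 521 of 10792 with the mean filter. In limma without GFPfoxp3 cells the count was 0 (1907 at an unadjusted p under 0.05). IL-2 gave 28, against 121 centred, 53 with the mean filter, and 0 in limma with quantile normalization, no filter, the variance trend, no population term or any population left out (474 to 1520 at an unadjusted p under 0.05).

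Against CD25neg cells a spread borrowed from the 6 arrays left 2 members (Maf and Prdm1) in GFPfoxp3, in GFPko and in CD25pos cells, and a 3-fold threshold left 3 in GFPko cells. For IL-2, 3-fold left 1 member in GFPko and 0 in CD25pos cells, and the borrowed spread 0 in both. Shares of all genes under the borrowed spread and the 3-fold threshold are not given here, so these counts are not set against a background. Cxcr5 after IL-2 changed sign without the CD25pos arrays (0.12) and without the GFPfoxp3 arrays (0.18). Other probe sets, chosen as an alternative after seeing the data, turned the sign of uncalled differences: Maf in GFPko against GFPfoxp3 cells (-0.45, -0.20 and -0.70) and against CD25pos cells (-0.06 and -0.25), and in GFPfoxp3 against CD25pos cells Maf (-1.05) and Slamf6 (0.16). Probe sets near the array median, as for Il21 in GFPfoxp3 and Cxcr5 in GFPko cells, limit how large a fold can be read. The fit compares populations within IL-2 state and IL-2 states within population, and with no population term none of the members was called after IL-2 (474 of all genes at an unadjusted p under 0.05 in limma).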
